A study of Mus musculus with 11 samples.

Results

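Transcripts of 8 genes of insulin and IGF signalling were followed through 3 FACS-sorted cell fractions of the mouse islet. The genes were *Igf1*, *Insr*, *Igf1r*, *Irs1*, *Irs2*, *Akt1*, *Akt2* and *Foxo1*. They were taken by symbol from the table of gene counts, which holds 55401 genes, and each symbol matched 1 row. The series comprised 11 poly(A) RNA-seq libraries from 4 male C57BL6/J mice of 10 weeks by the labels, fed chow, and replicate numbers joined the fractions of 1 mouse. By their labels, 4 libraries held NNAT-positive beta cells, called labelled-positive below, and 4 held NNAT-negative beta cells, called labelled-negative. The other 3 held non-beta cells, with none from mouse 4. All mice, and therefore all 3 fractions, carried RIP-Cre, STOP-tdTomato and *Nnat*-EGFP. Cre under the rat insulin promoter switched on tdTomato in beta cells, and a transgene with regulatory sequence of *Nnat*, the gene of the small membrane protein neuronatin, drove eGFP. The non-beta gate held tdTomato-negative islet cells, so it was defined by what the cells lacked and could hold endocrine and other cells alike.

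Insulin and IGF-1 bind the receptor tyrosine kinases encoded by *Insr* and *Igf1r*. The activated receptors phosphorylate the docking proteins IRS-1 and IRS-2, which recruit PI 3-kinase, and the lipid it makes brings the AKT kinases to the membrane. AKT phosphorylates FOXO1 and keeps it out of the nucleus, and also acts on GSK3 and the mTOR complex. In beta cells the pathway is known for its part in growth, survival and the maintenance of beta cell mass, and IRS-2 is known as the main docking protein there.

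Total counts ranged from 30420352 to 43238376 per library. *Nnat* itself ran against the labels. Mice 1 to 4 had 50.5, 46.4, 46.0 and 101 CPM (counts scaled to a common library size) in the labelled-positive libraries. Their labelled-negative partners had 74.8, 80.8, 66.5 and 153 CPM. The labelled-positive library was the lower one in 4 of 4 mice, and the fitted difference was −0.62 on the log2 scale (SE 0.17, edgeR quasi-likelihood test, adjusted *p*=0.486). A supplementary table of the study also heads the beta cell fractions the other way round. The labels are kept here. If they were exchanged, each direction between the beta cell fractions would turn over and the comparisons of each beta cell fraction with non-beta cells would change places. Marker levels went with the cell type labels. Summed CPM over 8 beta cell markers were 181591 to 426948 in the beta cell libraries and 10551 to 26018 in the non-beta libraries. The beta cell libraries of mouse 4 had the lowest sums, 182764 and 181591 CPM.

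Promoter sequence is shown for the 3 genes that passed the test between beta and non-beta cells, *Igf1r*, *Akt1* and *Igf1*. Each line gives the 250 bases 5′ of a RefSeq transcript start, 5′ to 3′ on the gene's strand, in GRCm38.p6. Capitals mark GGGCGG, the Sp1 box, searched on both strands with overlaps counted.
*Igf1r*, chr7:67952007-67952256, plus strand: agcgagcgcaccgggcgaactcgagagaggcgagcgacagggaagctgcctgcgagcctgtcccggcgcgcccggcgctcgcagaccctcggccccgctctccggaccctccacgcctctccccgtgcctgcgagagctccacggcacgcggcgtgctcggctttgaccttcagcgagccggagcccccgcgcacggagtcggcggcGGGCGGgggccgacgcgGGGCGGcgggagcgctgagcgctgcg
*Akt1*, outer start, chr12:112674885-112675134, minus strand: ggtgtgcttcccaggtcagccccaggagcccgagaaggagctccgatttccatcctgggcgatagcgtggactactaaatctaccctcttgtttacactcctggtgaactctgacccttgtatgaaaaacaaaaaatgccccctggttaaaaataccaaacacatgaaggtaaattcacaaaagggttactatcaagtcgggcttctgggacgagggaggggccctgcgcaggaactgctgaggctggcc
*Akt1*, inner start, chr12:112674277-112674526, minus strand: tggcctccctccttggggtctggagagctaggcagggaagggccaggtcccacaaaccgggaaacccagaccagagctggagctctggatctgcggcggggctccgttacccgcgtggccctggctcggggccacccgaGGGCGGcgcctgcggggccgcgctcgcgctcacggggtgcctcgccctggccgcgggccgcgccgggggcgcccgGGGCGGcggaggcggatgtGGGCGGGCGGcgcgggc
*Igf1*, chr10:87860861-87861110, plus strand: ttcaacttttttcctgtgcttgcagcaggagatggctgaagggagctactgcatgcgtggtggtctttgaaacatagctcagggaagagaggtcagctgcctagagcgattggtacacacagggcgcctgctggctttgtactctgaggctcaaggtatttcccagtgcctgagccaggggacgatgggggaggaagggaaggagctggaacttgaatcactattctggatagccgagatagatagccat
RefSeq entries were held for 7 of the 8 genes, with 11 starts in all, and *Insr* had none. The *Igf1r* window was 77.6% G and C with 2 Sp1 boxes, and the inner *Akt1* window was 78.4% G and C with 4, of which the last pair overlapped. The *Igf1* window was 52.8% G and C and held no GGGCGG. *Irs1* and *Foxo1* had 2 boxes each and *Irs2* and the outermost *Akt2* start 1 each. Across 32851 mouse windows of the same length, 32.7% held GGGCGG and the median G and C content was 52.4%. TATAAA was in 12.4% of all windows and in none of the 11. GTAAACA, a core of FOXO binding sites, was in 3.17% of all windows and among these genes only in the outer *Akt1* window, which had no GGGCGG. These matches describe letters in 1 window for each start and were not tied to the counts.

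The ligand gene *Igf1* (chromosome 10, bases 87858265 to 87937042, plus strand, GRCm38) encodes IGF-1, the growth factor that activates the IGF-1 receptor. Its transcripts were found almost only in non-beta cells. Non-beta libraries of mice 1, 2 and 3 had 88.8, 29.996 and 29.7 CPM, from 4109, 1132 and 1104 counts. The 4 labelled-positive libraries held 1 count together, and the 4 labelled-negative ones held 0. Beta and non-beta libraries did not overlap, and the non-beta library of mouse 1 stood above the other 2. Against a floor of 3 counts per library, *Igf1* was at least 653-fold lower in the labelled-positive and 552-fold lower in the labelled-negative libraries than in non-beta cells. Without the non-beta library of mouse 1 these bounds were 394 and 333. For the labelled-positive libraries, the pooled non-beta to beta ratio was 8338, with a 95% counting interval from 1496 to 329402. Without that non-beta library it was 4753, with an interval from 852 to 187800. The labelled-negative libraries, with 0 counts, gave only the lower limit of such an interval, 1912, and 1089 without that non-beta library. These intervals cover counting error and not the spread between mice. *Igf1* was called lower in both comparisons (edgeR quasi-likelihood test, adjusted *p*=4.13e-07 and 3.94e-07). It passed the filter on low counts only through the non-beta libraries, which fixed its direction. In sorted bulk RNA, fewer cells of a type and less RNA per cell cannot be told apart.

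Among the non-beta libraries, mesenchymal and macrophage markers were highest in mouse 1, as *Igf1* was, and endothelial and alpha cell markers were lowest there. Mesenchymal markers, 7 genes including the collagens *Col1a1* and *Col3a1*, summed to 8088, 3331 and 4357 CPM in mice 1, 2 and 3. The 8 macrophage and leukocyte markers summed to 1197, 523 and 641 CPM, and so both sums were also highest in mouse 1. Endothelial markers, 7 genes, summed to 2119 CPM in mouse 1 against 2248 and 2422 CPM in mice 2 and 3. Alpha cell markers, 7 genes led by *Gcg*, were lowest in mouse 1, at 120436 CPM against 168329 and 145383 CPM. In beta cell libraries the mesenchymal sum was between 0.0609 and 4.69 CPM, with the defining markers *Pdgfra* and *Lum* at 0 in each of the 8. The macrophage sum was between 47.6 and 79.2 CPM there, of which *C1qa* alone made 44.2 to 74.8 CPM. The part of these cells in the *Igf1* level was not tested.

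**Figure D1:**
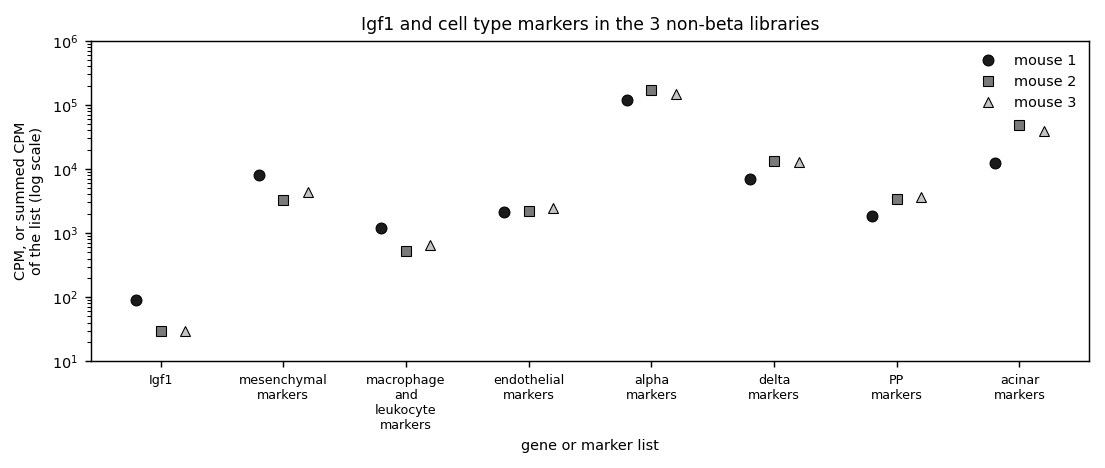
*Igf1* CPM and the summed CPM of 7 marker lists (vertical axis, log scale) in the non-beta libraries of 3 mice, 1 symbol per library. Mouse 1 had the highest *Igf1* (88.8 CPM) and the highest mesenchymal (8088) and macrophage (1197) sums, and the lowest endothelial, alpha, delta, PP and acinar sums.

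The receptor genes differed in how they were distributed. *Igf1r* (chromosome 7, bases 67952827 to 68233668, plus strand) encodes the IGF-1 receptor. In mice 1 to 4 it had 138, 132, 128 and 123 CPM in the labelled-positive libraries and 143, 162, 149 and 116 CPM in the labelled-negative ones. Non-beta cells of mice 1 to 3 had 48.9, 71.2 and 50.5 CPM. Every beta cell library lay above every non-beta library. The log2 fold change against non-beta cells was 1.28 (SE 0.12) for the labelled-positive fraction and 1.39 (SE 0.12) for the other, or 2.42-fold and 2.62-fold higher. edgeR's quasi-likelihood test called both (adjusted *p*=5.71e-06 and 2.59e-06), and *Igf1r* was higher in 3 of 3 mice in each. The smallest difference within a mouse was 0.89 on the log2 scale, between the libraries of mouse 2.

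*Insr* (chromosome 8, bases 3122061 to 3279617, minus strand), the insulin receptor gene, did not separate the fractions. It had 73.3, 91.7, 73.8 and 75.8 CPM in the labelled-positive libraries, 66.9, 83.8, 88.4 and 67.4 CPM in the labelled-negative ones, and 73.2, 84.8 and 87.8 CPM in non-beta cells. The 3 ranges overlapped. Its log2 fold change against non-beta cells was −0.02 (95% interval −0.23 to 0.19) for the labelled-positive fraction and −0.07 (−0.28 to 0.15) for the other. Neither passed the quasi-likelihood test (adjusted *p*=0.883 and 0.613). These intervals hold folds from 0.825 to 1.14, so a larger difference than that lay outside them.

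**Figure D2:**
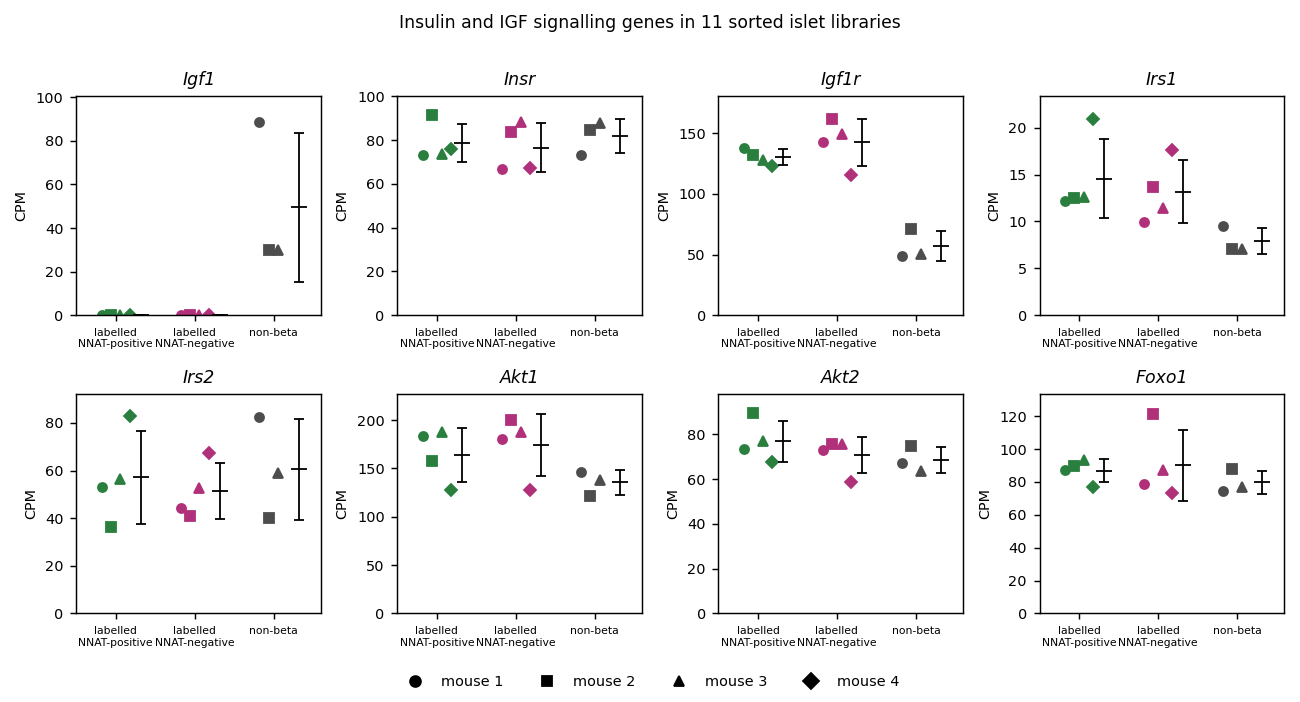
CPM of the 8 genes (vertical axes from 0) in the 11 libraries, by sorted fraction, with a symbol for each mouse and the mean ± SD beside the points (n = 4, 4 and 3). *Igf1* is near 0 in all 8 beta cell libraries, *Igf1r* is higher in every beta cell library (116 to 162 CPM) than in non-beta cells (48.9 to 71.2 CPM), and the fractions overlap for *Insr*, *Irs2*, *Akt2* and *Foxo1*.

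Per kilobase of exon, which allows genes to be compared, *Insr* was below *Igf1r* in each beta cell library and above it in each non-beta library. The ratio of *Insr* to *Igf1r* was 0.649, 0.846, 0.705 and 0.752 in the labelled-positive libraries and 0.571, 0.633, 0.725 and 0.710 in the labelled-negative ones. It was 1.83, 1.46 and 2.13 in non-beta cells. Within mice, the log2 ratio differed from that of non-beta cells by −1.29 ± 0.44 (SD, *n*=3 mice) for the labelled-positive fraction and by −1.48 ± 0.25 for the other. Both were lower in 3 of 3 mice, with an exact two-sided sign-flip permutation *p* of 0.25, the smallest that 3 mice allow. Between the beta cell fractions the difference was 0.16 ± 0.19 (*n*=4 mice, exact permutation *p*=0.25, smallest possible 0.125).

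The docking protein genes had a common pattern in the beta cell libraries and unlike levels. *Irs1* (chromosome 1, bases 82233101 to 82291416, minus strand) encodes IRS-1. It had 12.2, 12.5, 12.6 and 20.97 CPM in the labelled-positive libraries, 9.93, 13.6, 11.5 and 17.6 CPM in the labelled-negative ones and 9.49, 7.08 and 7.10 CPM in non-beta cells. The lowest beta cell library, from mouse 1, stood only just above the highest non-beta library, which came from the same mouse. *Irs1* was higher in beta cells in 3 of 3 mice in both comparisons, with log2 fold changes of 0.68 (SE 0.19) and 0.55 (SE 0.19). With adjusted *p*=0.0118 and 0.0321 in the quasi-likelihood test, neither passed the threshold of 0.01. The first did pass with DESeq2 (0.58, adjusted *p*=0.00732) and without mouse 1 (0.87, adjusted *p*=0.00702).

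*Irs2* (chromosome 8, bases 10984681 to 11008458, minus strand), the gene of IRS-2, varied more between mice than between fractions. It had 53.1, 36.2, 56.3 and 83.1 CPM in the labelled-positive libraries, 44.2, 41.0, 52.7 and 67.4 CPM in the labelled-negative ones, and 82.4, 39.9 and 59.1 CPM in non-beta cells. Mouse 2 was lowest in each fraction, and mouse 4 was highest in both beta cell fractions. The log2 fold changes against non-beta cells were −0.27 (SE 0.15, adjusted *p*=0.177) and −0.38 (SE 0.15, adjusted *p*=0.0573) in the quasi-likelihood test. Per kilobase, the *Irs2* to *Irs1* ratio was 4.19 to 6.44 in the labelled-positive libraries, 4.35 to 6.63 in the labelled-negative ones and 8.16 to 12.6 in non-beta cells. The ranges of beta and non-beta cells did not overlap, and *Irs2* was the higher gene in all 11 libraries. The difference of the log2 ratio from non-beta cells varied little between mice, at −0.96 ± 0.05 and −0.91 ± 0.05 (SD, *n*=3 mice, exact permutation *p*=0.25 for each). The beta cell fractions differed by −0.02 ± 0.05 (*n*=4 mice, exact permutation *p*=0.5).

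**Figure D3:**
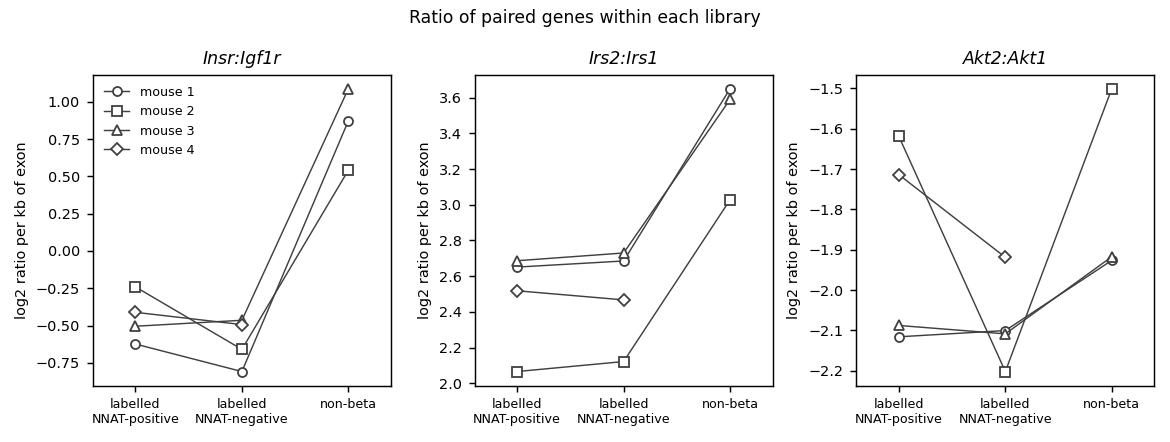
Log2 ratio of *Insr* to *Igf1r*, *Irs2* to *Irs1* and *Akt2* to *Akt1* per kilobase of exon (vertical axes, each with its own range) in each library, with lines joining the fractions of 1 mouse. The first ratio lies below 0 in beta and above 0 in non-beta cells, and the second is about 1 log2 unit lower in beta cells in each of 3 mice.

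Of the kinase genes, *Akt1* (chromosome 12, bases 112653821 to 112674884, minus strand) was called and *Akt2* was not. Both encode AKT kinases, and AKT2 is best known for its part in glucose uptake by muscle and fat. *Akt1* had 183, 158, 188 and 128 CPM in the labelled-positive libraries, 181, 201, 188 and 128 CPM in the labelled-negative ones, and 147, 122 and 138 CPM in non-beta cells. In mice 1 to 3 each beta cell library lay above its non-beta partner, but the beta cell libraries of mouse 4, which had no partner, lay within the non-beta range. The log2 fold changes were 0.39 (SE 0.09, adjusted *p*=0.00472) and 0.48 (SE 0.09, adjusted *p*=0.00129) in edgeR's quasi-likelihood test, or 1.31-fold and 1.39-fold. Without the mouse as a block they were 0.27 and 0.36 with adjusted *p*=0.231 and 0.111, and neither was called. The first call was also lost without mouse 1 (0.44, adjusted *p*=0.0132), mouse 3 (0.38, adjusted *p*=0.0473) or mouse 4 (0.37, adjusted *p*=0.0175), and the second without mouse 3 (0.49, adjusted *p*=0.0151).

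*Akt2* (chromosome 7, bases 27591552 to 27640826, plus strand) had 73.5, 89.4, 77.0 and 67.7 CPM, 73.2, 75.9, 75.8 and 58.9 CPM, and 67.1, 74.9 and 63.8 CPM in the same order of fractions. The fractions overlapped. Its log2 fold changes against non-beta cells were 0.23 (SE 0.08, adjusted *p*=0.0410) and 0.12 (SE 0.08, adjusted *p*=0.278) in the quasi-likelihood test, each higher in 3 of 3 mice. Per kilobase, the *Akt2* to *Akt1* ratio was 0.231 to 0.326, 0.217 to 0.264 and 0.263 to 0.353, so *Akt1* was the more abundant gene in each library. Within mice the log2 ratio differed from non-beta cells by −0.16 ± 0.04 and −0.36 ± 0.30 (SD, *n*=3 mice, exact permutation *p*=0.25 for each).

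*Foxo1* (chromosome 3, bases 52268336 to 52353221, plus strand) encodes the transcription factor that AKT restrains. It had 87.0, 89.9, 93.4 and 76.9 CPM in the labelled-positive libraries, 78.9, 121, 87.1 and 73.3 CPM in the labelled-negative ones, and 74.5, 87.7 and 76.9 CPM in non-beta cells. The labelled-negative library of mouse 2 was the highest, and the other values overlapped across fractions. The log2 fold changes against non-beta cells were 0.20 (SE 0.11, adjusted *p*=0.151) and 0.23 (SE 0.11, adjusted *p*=0.0965) in the quasi-likelihood test.

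Of the 8 genes, 2 were called higher and 1 lower in the labelled-positive libraries than in non-beta cells, at an adjusted *p* below 0.01. Over the 17424 genes tested, 16.1% were called higher and 19.3% lower. For the labelled-negative libraries the same counts were 2 and 1 of 8, beside 15.9% and 21.6% of all genes. The lower gene in both was *Igf1*, whose direction was fixed by the filter on low counts. Both comparisons share the 3 non-beta libraries. Exons of *Irs1*, *Irs2* and *Foxo1* overlap an opposite-strand gene by 2822, 162 and 674 bases, and these neighbours had at most 0, 0.609 and 0.166 CPM. Whether the counting used strand is not given in the sources used here, and without it overlapping reads cannot be told apart.

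**Figure D4:**
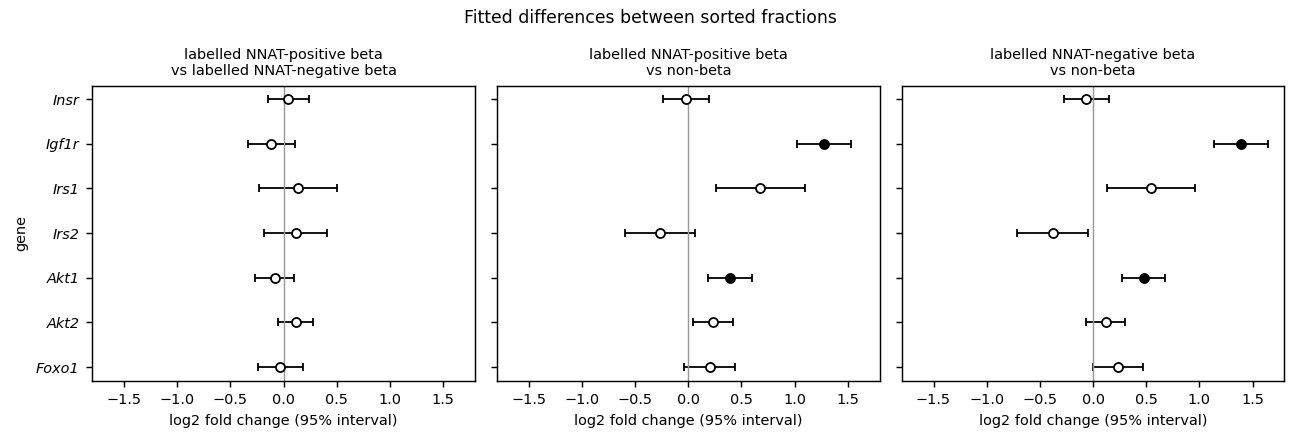
Fitted log2 fold changes (horizontal axes) with 95% intervals for 7 genes in the 3 comparisons, filled where a gene was called at an adjusted *p* below 0.01. *Igf1* is left out because its beta cell libraries held 1 count in all. *Igf1r* and *Akt1* are filled in both comparisons with non-beta cells, and no gene is filled between the beta cell fractions.

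Between the beta cell fractions none of the 8 genes passed. edgeR's quasi-likelihood test called 0 of 8, 0 had an unadjusted *p* below 0.05, and DESeq2 called 0. Across all genes, 0.0574% were called higher and 0% lower in the labelled-positive libraries. The latter is 0 genes, with 134 lower at an unadjusted *p* below 0.05 and 14 called lower by DESeq2. The log2 fold changes of the members were small. *Insr* was at 0.04 (95% interval −0.15 to 0.23), *Igf1r* at −0.12 (−0.34 to 0.10) and *Akt1* at −0.09 (−0.27 to 0.10). *Irs1* was at 0.13 (−0.23 to 0.50), *Irs2* at 0.11 (−0.18 to 0.41) and *Foxo1* at −0.03 (−0.24 to 0.18). *Akt2*, at 0.12 (−0.05 to 0.28, adjusted *p*=0.910), was the only member that was higher in the labelled-positive library of 4 of 4 mice. *Igf1* had 1 count and 0 counts, and no fold is given. The widest of these intervals, that of *Irs1*, holds folds from 0.851 to 1.41, so smaller differences than this could not be told from 0 with 4 mice.

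Per kilobase the order of the members was much the same in the beta cell fractions, where *Igf1*, with 1 count in all, was below the other 7. In the labelled-positive libraries, *Akt1* was highest at 40.0 ± 6.77 CPM per kb (SD, *n*=4). *Akt2* (10.8 ± 1.29), *Foxo1* (10.0 ± 0.817) and *Irs2* (9.04 ± 3.07 CPM per kb) followed and overlapped. *Igf1r* (7.76 ± 0.376) overlapped with *Irs2* but not with *Insr* (5.72 ± 0.636), and *Irs1* was lowest of these 7 at 1.59 ± 0.466 CPM per kb. In the labelled-negative libraries the same 7 genes ran from *Akt1* at 42.5 ± 7.79 to *Irs1* at 1.44 ± 0.365 CPM per kb. In non-beta cells *Akt1* was at 33.1 ± 3.08 CPM per kb (SD, *n*=3), *Akt2*, *Irs2* and *Foxo1* overlapped between 6.31 and 13.03, and *Insr* (5.96 ± 0.560) lay above *Igf1r* (3.38 ± 0.741). *Igf1*, at 5.00 ± 3.44 CPM per kb in that fraction, overlapped with both receptor genes. *Irs1* was lowest among these genes there too, at 0.863 ± 0.152 CPM per kb.

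Mouse 4 lay at an end of the range for most members. Its beta cell libraries had the highest *Irs1* and *Irs2* and the lowest *Igf1r* of each beta cell fraction, and the lowest *Akt1*, *Akt2* and *Foxo1*. Over the 8 beta cell libraries, which share mice in pairs, Pearson's *r* of log2 CPM was 0.75 between *Irs1* and *Irs2* and 0.83 between *Igf1r* and *Akt1*. It was −0.81 between *Irs1* and *Akt1*. The genes closest in pattern to each member over all 11 libraries are given as a description. For *Igf1r* they were *Hcn4* (*r*=0.995), *Zswim1* (0.995) and *Copa* (0.990). For *Igf1* they were *Lox* (1.00), *Lcp2* and *Pirb* (0.999 each), and for *Irs2* they were *Arrb2* (0.971), *Phf11c* (0.917) and *Snhg5* (0.913). *Gnl1* (0.9697) was closest to *Akt1*, *Mospd2* (0.964) to *Irs1*, *Mrpl28* (0.930) to *Foxo1*, *Mesp2* (0.914) to *Akt2* and *Nhlrc1* (0.906) to *Insr*. Within the 8 beta cell libraries, *Zfp598* (0.997) and *Arrb2* (0.981) were closest to *Irs2* and *Ywhae* (0.990) to *Akt1*.

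The other genes of the pathway were counted over 6 fixed lists of 76 genes, of which 73 were tested. Against non-beta cells, 20 were called higher and 21 lower in the labelled-positive libraries, and 17 and 22 in the labelled-negative ones. All genes tested gave 16.1% higher and 19.3% lower in the first comparison and 15.9% and 21.6% in the second. Without mouse 3 the first count of higher genes was 13. Ligands, binding proteins and further receptors had 5 called higher and 6 lower of 13, and 5 and 5 for the other fraction, with median log2 fold changes of 0.35 and 0.29 beside −0.06 and −0.13 over all genes. *Ins1* and *Ins2*, the insulin genes, were among the higher ones, and the gate itself rested on an insulin promoter. Without mouse 1 neither was called in either comparison, and the higher count of the list was 4 and 3. *Insrr*, the insulin receptor-related receptor, had 408, 414, 513 and 745 CPM in the labelled-positive libraries, 378, 328, 461 and 607 CPM in the labelled-negative ones and 46.3, 53.3 and 69.8 CPM in non-beta cells. The groups were far apart, at log2 fold changes of 3.00 (SE 0.10) and 2.78 (SE 0.10), with adjusted *p*=7.13e-09 and 8.67e-09. *Igfals*, the acid-labile subunit that carries IGF in serum, was higher by 2.31 and 2.30, and *Igf2r*, the scavenger receptor for IGF-2, by 0.56 and 0.50, though *Igf2r* was not called without the mouse block.

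IGF binding proteins hold IGF outside the cell, and their genes were lower in beta cells than in non-beta cells. Of 6 tested, 6 were called lower in the labelled-positive and 5 in the labelled-negative libraries, beside 19.3% and 21.6% of all genes. *Igfbp2*, *Igfbp3* and *Igfbp6* passed the filter on low counts only through the non-beta libraries, which fixed their direction. *Igfbp7* had 88.4 to 110 CPM in beta cells and 540 to 653 CPM in non-beta cells, with log2 fold changes of −2.57 and −2.69. *Igfbp6* had 118, 49.6 and 52.5 CPM in non-beta cells, 0 in the labelled-positive libraries (at least 969-fold lower against the floor of 3 counts) and 1 count in the labelled-negative ones. *Igfbp3*, *Igfbp4* and *Igfbp5*, named after their values were seen, were called in both comparisons, also with any 1 mouse left out. *Igfbp2*, also named so, had 0.565 to 3.24 CPM in non-beta cells and at most 0.0820 CPM in beta cells. It passed in the first comparison (adjusted *p*=0.00741) and not in the second (adjusted *p*=0.0184), and the first call was lost without any 1 of the 4 mice. Mesenchymal, endothelial and macrophage markers were also lower in beta cells, with 7 of 7, 7 of 7 and 8 of 8 called. For part of these the direction was fixed by the filter on low counts. *Pdgfra* and *Lum* had 0 counts in every beta cell library. *Cdh5* (9 counts) and *Emcn* (25 counts) had theirs only in the labelled-positive library of mouse 1. Such markers could pass only through the non-beta libraries. Among the non-beta libraries, the mesenchymal (8088 CPM) and macrophage (1197 CPM) sums were highest in mouse 1 and the endothelial sum (2119 CPM) was lowest there. The binding protein genes tested, except *Igfbp3*, were also highest in mouse 1. The part of such cells was not tested.

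PI 3-kinase subunits and PDK1 had 4 of 7 called higher and 2 lower in both comparisons, with median log2 fold changes of 0.39 and 0.40. Over all genes, 16.1% were called higher and 19.3% lower in the first comparison and 15.9% and 21.6% in the second. *Pik3r3*, a regulatory subunit, was higher by 0.84 and 0.93, and *Pdpk1*, the kinase that activates AKT, by 0.63 and 0.65. The others called higher were *Pik3ca* and *Pik3r1*, named after their values were seen. Without mouse 2 or without mouse 3, 2 of the 7 were called higher in each comparison. *Pik3cd*, the leukocyte catalytic subunit, was called lower in both, as was *Pik3cb*, named after its values were seen. The *Pik3cb* call was lost without mouse 1 or 3 for the labelled-positive libraries and without any 1 of the 4 mice for the labelled-negative ones, and *Pik3cd* was then still called. *Pik3cd* was at 26.2, 13.8 and 13.04 CPM in the non-beta libraries of mice 1 to 3, highest where the macrophage sum was, and at 0 to 1.44 CPM in beta cells. Of the further substrates and adaptors, 1 of 6 was called higher and 2 lower in each comparison. *Shc1*, an adaptor to the RAS pathway, was higher by 0.93 and 0.98, and *Gab1*, a docking protein, was called lower at −3.40 and −3.76 on the log2 scale, with 34.7 to 39.1 CPM in non-beta and 2.30 to 4.65 CPM in beta cells. The other gene called lower was *Sh2b2*, named after its values were seen, which passed the filter only through the non-beta libraries. Its call was lost without mouse 1 in both comparisons and without mouse 2 in the labelled-positive one, where 2 of the list were then called higher. Without the block it was lost for the labelled-positive libraries too.

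Inhibitors of the pathway had 4 of 16 called higher and 4 lower in both comparisons, with medians of 0.19 and 0.02. The shares over all genes were 16.1% higher and 19.3% lower in the first comparison and 15.9% and 21.6% in the second. *Ptprf*, a receptor phosphatase, was higher by 0.86 and 0.81, *Deptor*, an inhibitor within mTOR complexes, by 0.69 and 0.74, and *Tsc1*, which restrains mTOR, by 0.73 and 0.70. *Grb10*, an adaptor that blocks both receptors, had 24.9 to 32.1 CPM in beta cells and 149 to 152 CPM in non-beta cells. Its log2 fold changes were −2.38 (SE 0.09) and −2.46 (SE 0.09), with adjusted *p*=1.37e-08 and 1.08e-08 in the quasi-likelihood test. *Socs3*, a feedback inhibitor of cytokine and insulin signalling, was at −2.65 and −2.77. *Tsc2* was also called higher in both and *Inpp5d* and *Enpp1* lower, all named after their values were seen. Without mouse 3 *Tsc2* and *Inpp5d* were not called, and *Inpp5d* passed the filter only through the non-beta libraries. In non-beta cells of mice 1 to 3, *Socs3* had 107, 45.9 and 56.9 CPM, *Inpp5d* 45.8, 24.0 and 27.1 CPM and *Enpp1* 21.2, 12.1 and 12.4 CPM. All 3 were highest in mouse 1, as were the mesenchymal and macrophage sums, whose part in these values was not tested.

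The FOXO, GSK3 and mTOR branch had 6 of 18 called higher and 1 lower in the labelled-positive libraries and 3 and 1 in the labelled-negative ones, with medians of 0.31 and 0.24. Beside these, 16.1% of all genes were called higher and 19.3% lower in the first comparison, and 15.9% and 21.6% in the second. *Gsk3b*, a kinase that AKT inhibits, was higher by 0.53 in each comparison. Without mouse 3 the higher counts were 2 and 1, without mouse 4 they were 3 and 3, without mouse 1 they were 4 and 3, and without mouse 2 they were 6 and 6. The lower gene was *Foxo4* and the other higher ones in both comparisons were *Foxo6* and *Mtor*, all 3 named after their values were seen. The *Foxo4* call was lost without any 1 of the 4 mice for the labelled-positive libraries and without mouse 1, 3 or 4 for the labelled-negative ones. Without the mouse block the higher counts were 3 and 2.

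Known FOXO target genes had 0 of 13 called higher and 6 and 8 called lower in beta cells, with medians of −0.55 and −0.57. All genes tested gave 16.1% higher and 19.3% lower in the first comparison and 15.9% and 21.6% in the second, with medians of −0.06 and −0.13. In the quasi-likelihood test 3 and 1 genes of the list were higher at an unadjusted *p* below 0.05. DESeq2 called 0 of the list higher in each comparison, and 7 and 9 lower. *Pdk4*, which curbs glucose oxidation, had 112, 174 and 188 CPM in non-beta cells and 1.13 to 4.97 CPM in beta cells (−5.50 and −6.39). *Cat*, the catalase gene, was at −3.04 and −3.08, and *Txnip*, a glucose-responsive inhibitor of thioredoxin, at −1.24 and −1.81. Without the mouse block 2 were called lower in each comparison, and with each mouse left out in turn 4 or 5 were, so these counts depend on the fit.

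**Figure D5:**
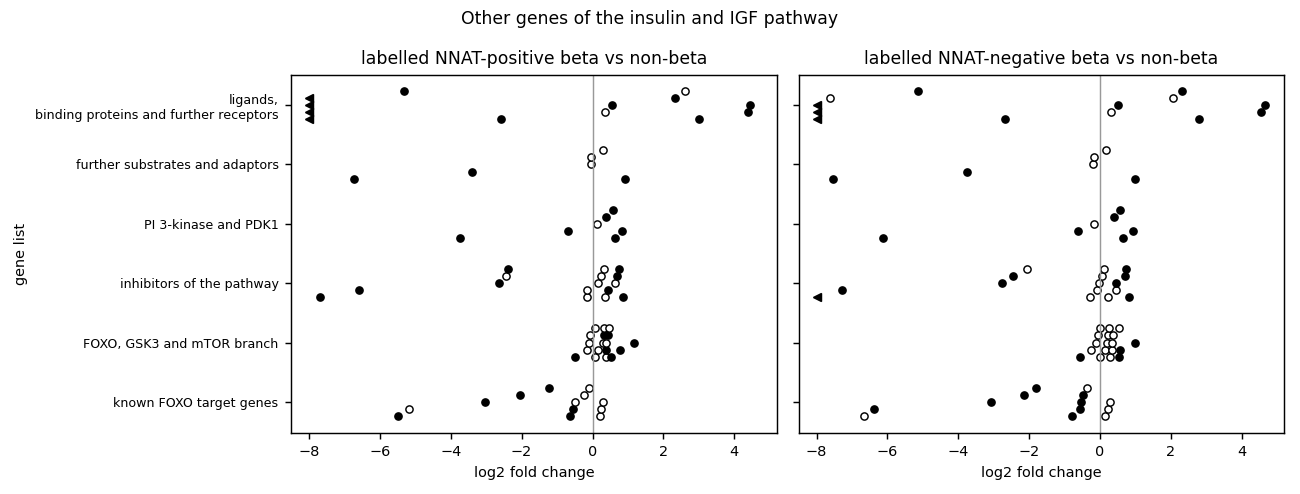
Log2 fold changes (horizontal axes) of the tested genes of the 6 pathway lists in both comparisons with non-beta cells, filled where the adjusted *p* was below 0.01. Arrowheads stand for values below −8, and the vertical scatter within a list has no meaning. Called FOXO target genes lie on the lower side, and called PI 3-kinase genes lie on both sides.

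Between the beta cell fractions edgeR's quasi-likelihood test called 0 of the 73 pathway genes, and DESeq2 called 3. Without adjustment, 9 of the 73 were higher and 0 lower by edgeR at *p* below 0.05. The same cut took in 841 higher and 134 lower genes among all 17424 tested. The pathway genes thus leaned to the side to which all genes leaned. DESeq2 called 123 of all genes higher and 14 lower. The 3 pathway genes with the smallest *p* in edgeR were *Txnip*, *Pik3cd* and *Insrr*. *Txnip* had 311, 229, 225 and 603 CPM in the labelled-positive libraries and 202, 139, 151 and 465 CPM in their partners. It was higher in the labelled-positive library of 4 of 4 mice although the groups overlapped, since mouse 4 was high in both. Its log2 fold change was 0.57 (SE 0.09, adjusted *p*=0.0388), and it was called by DESeq2 (0.54, adjusted *p*=1e-07) and by edgeR when non-beta libraries were left out of the fit (0.53, adjusted *p*=0.00576). *Pik3cd* was at 1.35, 1.27, 1.44 and 0.685 CPM against 0.546, 0, 0.139 and 0.301 CPM, a difference of 2.41 on the log2 scale (SE 0.60, adjusted *p*=0.297). *Insrr* was at 0.22 (SE 0.08, adjusted *p*=0.740) and higher in 4 of 4 mice.

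Summed markers of non-beta endocrine cells did not overlap between the beta cell fractions and lay higher in the labelled-positive libraries. The delta cell sum, 4 genes led by *Sst*, was 1403 to 2490 CPM there and 543 to 1046 CPM in the labelled-negative ones. The PP cell sum, *Ppy* and *Pyy*, was 300 to 421 CPM against 89.0 to 159 CPM, and both genes were called (2 of 2), as was 1 of the 4 delta cell markers, *Rbp4*. Alpha cell markers summed to 2828 to 4101 CPM against 1655 to 2490 CPM, with 0 of 7 called. Non-beta cells had 538 to 616 CPM of *Txnip* and 13.04 to 26.2 CPM of *Pik3cd*. The part of such cells in the *Txnip* and *Pik3cd* values was not tested.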

How the data were processed

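Islets of each mouse were dispersed and sorted by FACS, with dead cells and doublets excluded. The authors made poly(A) libraries with a directional kit, sequenced paired reads of 75 bp, aligned them to mm10 with STAR 2.7.1a and deposited whole-number counts per gene (gencode release 25, per the methods). A table of the authors' DESeq2 1.32.0 results was read but its values were not used.

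Counts were analysed in R 4.3.3 with edgeR 4.0.16. filterByExpr by fraction kept 17424 of 55401 genes. After TMM normalisation all 11 libraries entered 1 quasi-likelihood fit with fraction and mouse, Benjamini-Hochberg adjustment ran over all tested genes, and an adjusted *p* below 0.01 was a call. CPM were scaled by TMM, with a prior count of 2 added before taking log2. Each SE came from the log2 fold change and its *F* statistic, and fold changes and intervals rest on 3 or 4 mice. Levels per kilobase used exon unions of gencode release 21 (GRCm38), matched for 55141 genes. Ratios were compared by exact sign-flip permutation within mice. The floor was 3 counts, 0.0649 to 0.102 CPM, and covers counting error only. The methods give each replicate as 1 mouse. Deviations from the group means correlated by 0.314 on average between beta cell fractions of 1 mouse (4 pairs, 0.182 to 0.658, the highest in mouse 4). Between beta and non-beta cells of 1 mouse they correlated by 0.0828 (6 pairs, 0.0321 to 0.125). For different mice the averages were −0.103 (12 pairs, −0.322 to 0.0931) and −0.0276 (18 pairs, −0.105 to 0.0683). With non-beta cells the ranges for 1 mouse and for different mice overlapped. No 2 libraries held identical counts.

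Named were the 8 members and, of the pathway lists, the 8 called genes with the smallest *p* in each direction. Where fewer than 3 were called, the 3 with the smallest *p* were named. For likeness, the 3 genes with the highest *r* were listed and part of them is given. Members and lists were chosen with earlier results of these data known. Alternatives were RLE size factors, DESeq2 1.42.0, no filter on low counts, no block, each mouse left out, no genes over 1% of counts, beta cell libraries only, and other thresholds. The edgeR and DESeq2 fits were tried on simulated data for the comparison of the beta cell fractions only. The simulation held no mouse effect and no difference of non-beta cells, so it did not test the block or the comparisons with non-beta cells. A gene of the lists is not reported here.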

Additional observations from a re-analysis of the deposited data

Results flagged for a closer look

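In 14 groups of 4 beta cell libraries, the highest and lowest value of each member with 3 or more counts was compared with the others, and 3 groups held a library far from the rest. Chance gives about 1 such group in 20. *Insr* had 91.7 CPM in the labelled-positive library of mouse 2, with the other 3 between 73.3 and 75.8 CPM. *Irs1* had 20.97 CPM in the labelled-positive library of mouse 4, with the others between 12.2 and 12.6 CPM. *Akt2* had 58.9 CPM in the labelled-negative library of mouse 4, with the others between 73.2 and 75.9 CPM.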

How the results depend on the processing

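Of 214 member fold changes recomputed under the alternatives, 200 kept their direction and side of the threshold, 8 lost the call, 2 gained it and 4 changed sign. Of the 57 recomputed ratios, some used the longest transcript in place of the exon union, and levels within a fraction then moved by less than their SD. This change of length cancels in differences between fractions, so it could not alter them. Nor could it move the *Irs2* to *Irs1* level, as each of these genes has 1 transcript. With a mouse left out or without pairing, differences between fractions kept their direction. The lost calls were those of *Akt1*, which for the labelled-positive libraries also fell away with RLE size factors (0.29, adjusted *p*=0.0279) and without genes over 1% of counts (0.31, adjusted *p*=0.0221). Sign changes concerned values near 0. Between the beta cell fractions, with each mouse left out, *Insr* ranged from −0.036 to 0.15, *Akt1* from −0.15 to 0.0033 and *Foxo1* from −0.10 to 0.10. Against non-beta cells, *Insr* of the labelled-positive libraries ranged from −0.10 to 0.066. At an adjusted *p* below 0.05, 5 members were called in that comparison in place of 3.

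Between the beta cell fractions the calls depended on the fit. All genes called numbered 10, and 137 with DESeq2 (123 higher, 14 lower), 16 with no filter, 28 at an adjusted *p* below 0.05, and 1 to 6 with a mouse left out. Pathway genes called numbered 0, and 3 with DESeq2 (*Txnip*, *Pik3cd* and *Inpp5d*), 1 with the beta cell libraries only and 1 at an adjusted *p* below 0.05 (*Txnip*). The *Inpp5d* call rested on 1 library, with 24 counts in the labelled-positive library of mouse 1 and 0 in every other beta cell library. A 2-fold minimum reduced the pathway genes called against non-beta cells from 41 to 22 and from 39 to 20, and all genes from 6171 to 3778 and from 6529 to 4074, since it adds a criterion. The causes of the other changes were not tested.

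Without the mouse as a block, 1 gene was called between the beta cell fractions in place of 10, and *Akt1* was not called (0.27 and 0.36). Ratio differences of group means in place of paired ones, added after the data were seen, kept their directions. The *Igf1* bounds without a non-beta library and the gene by gene calls of the pathway lists were also added then. Without the block the *Igf1r* and *Igf1* calls were kept. Non-beta cells had 3 mice, which bounds the precision of each comparison with them.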
